A study of Homo sapiens with 27 samples.

Results

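The 9 genes described here make, break down and recycle glutathione or supply the cysteine it is built from. They are CHAC1, CHAC2, GCLC, GCLM, GSS, GSR, SLC7A11, CTH and CBS, picked by symbol from the 27115 genes listed for each library, and all 9 were present. Their RNA levels were followed after knockdown of SIRT3, a deacetylase of the mitochondrial matrix, in 3 cell lines of diffuse large B-cell lymphoma (DLBCL): Karpas422, OCILy1 and HBL1. Each line carried a control shRNA with a scrambled sequence (shCTRL) or 1 of 2 shRNAs against SIRT3 (shSIRT3_1 and shSIRT3_2), with 3 RNA sequencing libraries in each of the 9 groups. The shRNAs were delivered by lentivirus and RNA was taken on day 8, so the controls had also been infected and had expressed an shRNA for as long. Each line stands for 1 DLBCL subtype in the study, an oxidative phosphorylation type for Karpas422, a germinal centre type for OCILy1 and an activated B-cell type for HBL1, and OCILy1 was grown in another medium than the other two lines. The study describes the knockdown as replicated within each line, but whether the 3 libraries of a group came from separate cultures is not said, so p-values measure the spread between libraries, which may be technical.

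Glutathione is a tripeptide of glutamate, cysteine and glycine and the main thiol that cells use against oxidants. Glutamate-cysteine ligase, with its catalytic subunit GCLC and modifier subunit GCLM, joins the first pair of amino acids, glutathione synthetase (GSS) adds glycine, and glutathione reductase (GSR) returns the oxidized form to the reduced one at the cost of NADPH. Cysteine usually sets the limit on synthesis. It comes into the cell as cystine through the exchanger of SLC7A11 and its partner SLC3A2, or it is made from homocysteine by cystathionine beta-synthase (CBS) and cystathionine gamma-lyase (CTH). CHAC1 and CHAC2 cleave glutathione in the cytosol, and CHAC1 is well known as a gene induced through ATF4, the transcription factor of the amino acid stress response, which also acts on SLC7A11 and CTH. NFE2L2 (NRF2) is the textbook activator of GCLC, GCLM, GSR and SLC7A11.

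The sequence just upstream of CHAC1 and CTH is shown because these were the genes of the group that were lower in every knockdown library. The 250 bases before a RefSeq start site on GRCh38.p14, 5′ to 3′ on the gene's strand, were chr15:40953221-40953470 (plus strand) for CHAC1 and chr1:70411018-70411267 (plus strand) for CTH. Capitals mark a match to TGATGNAA on either strand, the core of the amino acid response element bound by ATF4 with C/EBP partners.
CHAC1: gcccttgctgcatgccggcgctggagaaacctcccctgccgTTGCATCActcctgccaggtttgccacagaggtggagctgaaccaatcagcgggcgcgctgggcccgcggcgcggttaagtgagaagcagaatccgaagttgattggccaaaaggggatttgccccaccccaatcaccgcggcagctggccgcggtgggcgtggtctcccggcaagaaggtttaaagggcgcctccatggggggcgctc
CTH: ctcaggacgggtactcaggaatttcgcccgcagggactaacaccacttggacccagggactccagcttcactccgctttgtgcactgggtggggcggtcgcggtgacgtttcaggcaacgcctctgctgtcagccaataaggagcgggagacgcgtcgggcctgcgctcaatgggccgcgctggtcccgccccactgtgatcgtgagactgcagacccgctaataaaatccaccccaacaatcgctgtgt
The CHAC1 window held the letters TTGCATCA, a match on the minus strand that begins 209 bases before the start, and the CTH window held none. Among the 35116 promoter windows of 300 bases in the same table, 3.62% held the motif. RefSeq windows were at hand for 6 of the 9 genes, 9 windows in all. A second motif, TGACNNNGC, the core of the antioxidant response element bound by NFE2L2, occurred in 13.3% of all windows. It was present before GCLM and before 1 of the 3 CBS starts, shown with 10 bases on each side (minus strand of the chromosome, chr1:93909446-93909474 and chr21:43076442-43076470).
GCLM: tacgatttctGCTTAGTCAttgtcttcca
CBS: ccggctctggGCGCGGTCAcgcggggcgc
Neither motif was found in the windows of CTH, CHAC2 or GCLC. A match describes letters in a window and is no evidence that a factor was bound.

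The values are those deposited as FPKM, which here are CPM (reads scaled to library size) divided by a length of 1.766 kb that is the same for every gene, so a level can be compared between libraries but not between genes. Libraries held 28694398 to 53405456 reads on genes (median 45669254). SIRT3 itself was below its line's control mean in 18 of 18 knockdown libraries, with 3-line log2 fold changes of -2.45 ± 0.17 (SE) and -1.37 ± 0.17 with shSIRT3_1 and shSIRT3_2. The 6 B-cell markers examined were above 1 FPKM in every library of the 3 lines. Of 3 fibroblast markers, DCN was high in Karpas422 alone, and the summed level of the list was 401 to 423 FPKM in its controls, 144 to 292 with shSIRT3_1 and 104 to 280 with shSIRT3_2. In HBL1 the same sum, from COL1A2, was 13.0 to 15.4 FPKM, 1.80 to 5.78 and 36.8 to 62.1, and in OCILy1 it stayed at or below 0.109. Of 4 T-cell markers, TRAC was not listed, CD3E was below 1 FPKM in Karpas422, and only 1 was above 1 in every library there. Their summed level in Karpas422 was 37.5 to 43.3 FPKM in the controls, 18.5 to 31.7 with shSIRT3_1 and 30.4 to 40.2 with shSIRT3_2. It was at or below 0.103 in the other lines. Of 3 epithelial markers, EPCAM was above 1 FPKM in every HBL1 library, where the list summed to 3.56 to 7.42. The part of these markers in the results was not tested. HBL1 shSIRT3_1 replicate 3 differed more than 2-fold from both other libraries of its group at 1619 genes, against a median of 39 over the 27 libraries and 472 in the next, and stood apart by this count. OCILy1 shCTRL replicate 2 did so at 238 genes, fewer than 6 other libraries, and was singled out after its values had been seen, because it held the high levels of CHAC1, SLC7A11, CTH, CBS, SLC3A2 and ATF4 described here. These are called the 2 doubted libraries. In bulk RNA, fewer cells of a kind and less RNA per cell cannot be told apart.

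**Figure D1:**
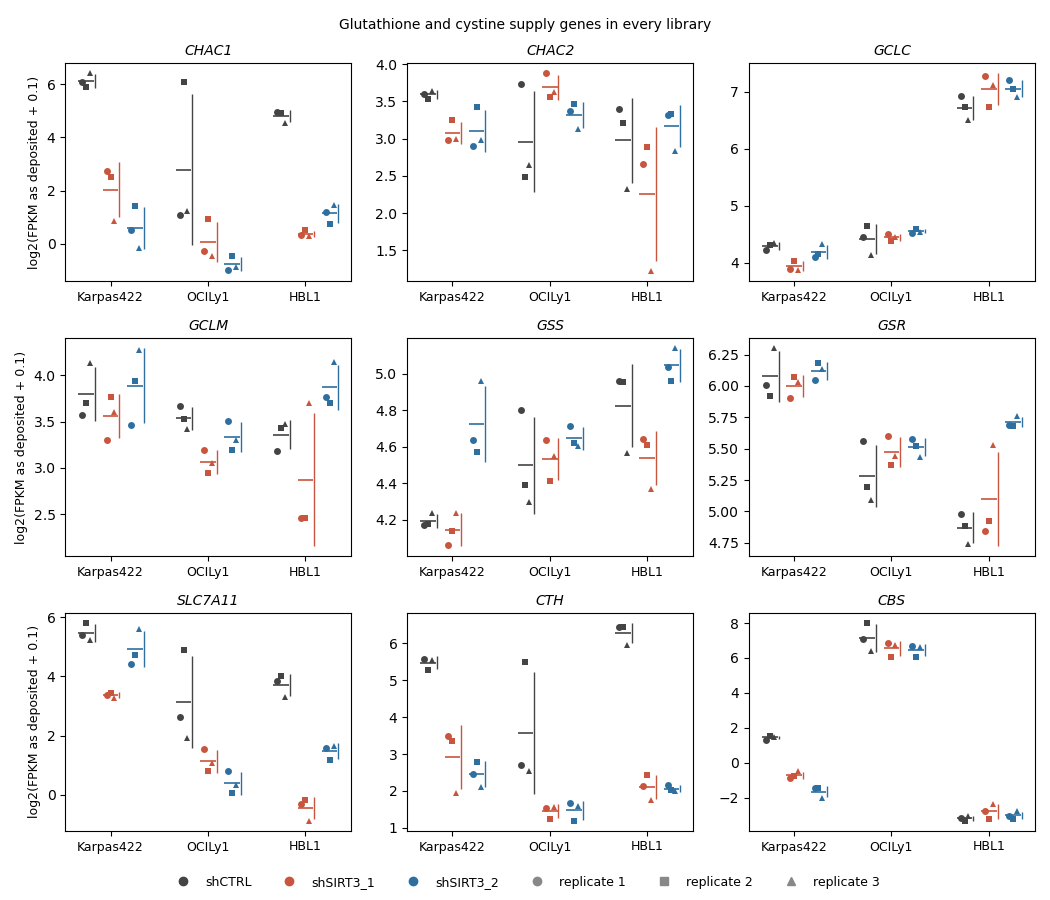
Level of each of the 9 genes in the 27 libraries, as log2 of FPKM as deposited plus 0.1, by cell line and shRNA. Points are libraries, horizontal bars are means and vertical bars are ± 1 SD (n = 3). CHAC1 and CTH are lower in every knockdown library than in any control of the same line, and OCILy1 shCTRL replicate 2 is far above its group in CHAC1, SLC7A11 and CTH.

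The first question was how the 9 genes responded to SIRT3 knockdown over the 3 lines together. CHAC1, CTH and SLC7A11 fell with both shRNAs, by 3.61 to 19.1-fold, and CBS fell with shSIRT3_2. None of the 9 rose past the thresholds, where 3.92% and 3.29% of all genes did, and the genes of glutathione synthesis and recycling moved little. A gene counts as called where its fold change was over 1.5 with an adjusted p under 0.05 in limma across 13076 genes. By that rule 3 of 9 genes were lower with shSIRT3_1, where 9.09% of all genes tested were, and 4 of 9 were lower with shSIRT3_2, against 10.2%. The median log2 fold change of the 9 genes was -0.40 and 0.02, beside -0.05 and -0.03 over all genes. Both shRNAs were compared with the same control libraries. Among all genes, 69.9% of calls with shSIRT3_1 and 75.6% with shSIRT3_2 were decreases, and after quantile normalization these shares were 54.7% and 59.4%.

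CHAC1 (hg19 chr15:41245160-41248710, plus strand), the stress-induced enzyme that splits glutathione into 5-oxoproline and cysteinylglycine, fell most. In Karpas422 it stood at 67.4, 59.3 and 85.1 FPKM in the 3 controls, at 6.64, 5.57 and 1.71 with shSIRT3_1, and at 1.33, 2.55 and 0.796 with shSIRT3_2. In HBL1 the controls held 30.7, 29.8 and 23.3, the shSIRT3_1 libraries 1.16, 1.32 and 1.13, and the shSIRT3_2 libraries 2.21, 1.58 and 2.66. In OCILy1 the controls held 1.99, 67.2 and 2.23, the shSIRT3_1 libraries 0.735, 1.81 and 0.620, and the shSIRT3_2 libraries 0.406, 0.617 and 0.451. The groups did not overlap in any line, but in OCILy1 the lowest control, at 1.99, was close to the highest knockdown library, at 1.81, and 1 control library carried most of the group's mean. Over the 3 lines CHAC1 fell by 3.74 ± 0.49 (log2, SE) with shSIRT3_1 (limma adjusted p = 2.8e-06) and fell by 4.25 ± 0.49 with shSIRT3_2 (adjusted p = 7.2e-07). Without the 2 doubted libraries the values were -3.25 and -3.88.

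CHAC2 (chr2:53994941-54002333, plus strand), the constitutive paralogue that cleaves glutathione more slowly, was called over the 3 lines with neither shRNA. Over the 3 lines its log2 fold change was -0.17 ± 0.23 with shSIRT3_1 (adjusted p = 0.6) and 0.02 ± 0.23 with shSIRT3_2 (adjusted p = 0.96). In Karpas422 the 3 controls, at 12.0, 11.5 and 12.4 FPKM, lay above all 6 knockdown libraries, which ran from 7.38 to 10.6. The log2 fold changes there were -0.52 (adjusted p = 0.022) and -0.49 (adjusted p = 0.028), below the 1.5-fold threshold. In OCILy1 the control libraries held 13.2, 5.52 and 6.14, and the knockdown libraries 8.65 to 14.6, so the groups overlapped. In HBL1 the controls held 10.4, 9.18 and 4.91 and the shSIRT3_1 libraries 6.19, 7.32 and 2.23. The shSIRT3_2 libraries of HBL1, with 7.05 as the lowest, were within the range of the controls, and no CHAC2 call was made in that line (-0.72 ± 0.44, adjusted p = 0.22, and 0.19, adjusted p = 0.77). Without HBL1 shSIRT3_1 replicate 3 the first value was -0.20 (adjusted p = 0.6). CHAC2 overlaps ASB3 on the other strand, and since strand was not stated for the counting, reads of these genes cannot be told apart.

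SLC7A11 (chr4:139085251-139163503, minus strand), the light chain of the cystine and glutamate exchanger, was below its line's control mean in 17 of 18 knockdown libraries. In HBL1 it stood at 14.2, 16.0 and 9.68 FPKM in the controls, at 0.709, 0.793 and 0.441 with shSIRT3_1, and at 2.89, 2.13 and 3.05 with shSIRT3_2. In Karpas422 the controls held 42.2, 56.0 and 37.2, the shSIRT3_1 libraries 10.3, 10.8 and 9.48, and the shSIRT3_2 libraries 21.3, 26.3 and 48.1. In OCILy1 the controls held 6.02, 29.4 and 3.66, the shSIRT3_1 libraries 2.83, 1.63 and 1.99, and the shSIRT3_2 libraries 1.66, 0.931 and 1.14. The knockdown libraries lay below the controls in each line with each shRNA except in Karpas422 with shSIRT3_2, whose replicate 3 was within the range of the controls. Over the 3 lines SLC7A11 fell by 2.76 ± 0.38 (log2, SE) with shSIRT3_1 (limma adjusted p = 5.4e-06) and fell by 1.85 ± 0.38 with shSIRT3_2 (adjusted p = 5.2e-04). The shSIRT3_2 value dropped below the threshold when the libraries numbered 2 were left out (-1.32, adjusted p = 0.052). Without the 2 doubted libraries the values were -2.33 and -1.60. SLC7A11-AS1 overlaps the gene on the other strand and was listed at low values.

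SLC3A2, the heavy chain that carries SLC7A11 to the cell surface, was below the control mean in 18 of 18 knockdown libraries. Its log2 fold change was -1.28 ± 0.20 with shSIRT3_1 (limma adjusted p = 1.9e-05) and -0.91 ± 0.20 with shSIRT3_2 (adjusted p = 7.6e-04). Without the 2 doubted libraries these were -1.10 (adjusted p = 4.7e-05) and -0.76 (adjusted p = 0.0011). The OCILy1 controls held 56.0, 207 and 42.6 FPKM and the knockdown libraries 47.6 to 54.4, so the groups overlapped and replicate 2 raised the control mean, and SLC3A2 was not called there (-0.60 ± 0.46, adjusted p = 0.42, and -0.69 ± 0.46, adjusted p = 0.35). Without OCILy1 shCTRL replicate 2 its values in OCILy1 were 0.09 and 0.01.

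CTH (chr1:70876901-70905534, plus strand), which releases cysteine from cystathionine and can also form hydrogen sulfide, fell with both shRNAs. In HBL1 it stood at 86.4, 87.3 and 62.5 FPKM in the controls, at 4.27, 5.26 and 3.29 with shSIRT3_1, and at 4.40, 3.94 and 3.90 with shSIRT3_2. In Karpas422 the controls held 48.1, 38.7 and 47.0, the shSIRT3_1 libraries 11.2, 10.1 and 3.72, and the shSIRT3_2 libraries 5.45, 6.85 and 4.19. In OCILy1 the controls held 6.44, 44.7 and 5.68, the shSIRT3_1 libraries 2.81, 2.27 and 2.88, and the shSIRT3_2 libraries 3.07, 2.18 and 2.92. No knockdown library reached the lowest control of its line, and with either shRNA the knockdown libraries of all lines ended between 2.18 and 11.2 although their controls differed widely. Over the 3 lines CTH fell by 2.95 ± 0.33 (log2, SE) with shSIRT3_1 (limma adjusted p = 3.5e-07) and fell by 3.11 ± 0.33 with shSIRT3_2 (adjusted p = 2.7e-07). Without the 2 doubted libraries the values were -2.65 and -2.93.

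CBS (chr21:44473301-44497053, minus strand), which condenses homocysteine with serine ahead of CTH, differed most between the lines. In Karpas422 it stood at 2.42, 2.82 and 2.69 FPKM in the controls, at 0.439, 0.484 and 0.615 with shSIRT3_1, and at 0.262, 0.269 and 0.144 with shSIRT3_2. In OCILy1 the controls held 135, 257 and 84.3, the shSIRT3_1 libraries 116, 65.5 and 107, and the shSIRT3_2 libraries 101, 66.8 and 98.1. In HBL1 it was at the limit of detection, with 0 to 2 reads in a control library and 1 to 11 in a knockdown library, and it was not tested in that line alone. CBS was thus lower in Karpas422, overlapped its controls in OCILy1 and was near 0 in HBL1. In Karpas422 only the 3 controls reached 1 FPKM. CBS therefore passed the filter of that line only through the group where it was high. The 3-line log2 fold changes, -0.79 ± 0.33 (limma adjusted p = 0.06) and -1.22 ± 0.33 (adjusted p = 0.0052), are averages over these unlike lines, HBL1 included. Without HBL1 the shSIRT3_1 value was -1.39 (adjusted p = 0.0071). Without Karpas422 the shSIRT3_2 value was -0.28 (adjusted p = 0.46), and without the libraries numbered 2 it was -1.02 (adjusted p = 0.1).

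GCLC and GCLM, the subunits that set the rate of synthesis, showed small changes. GCLC (chr6:53362139-53481768, minus strand) had log2 fold changes of 0.00 ± 0.09 and 0.12 ± 0.09 over the 3 lines. In HBL1 it stood at 122, 106 and 90.4 FPKM in the controls, at 156, 107 and 139 with shSIRT3_1, and at 148, 133 and 120 with shSIRT3_2. In Karpas422 with shSIRT3_1 the libraries, at 14.8, 16.3 and 14.6, were all below the controls, at 18.5, 19.8 and 20.3, a log2 fold change of -0.35 ± 0.10 (limma adjusted p = 0.018) that is under 1.5-fold. The ranges of GCLC therefore overlapped in HBL1 and were separate in Karpas422 with shSIRT3_1 alone. GCLC overlaps LINC01564 on the other strand.

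GCLM (chr1:94350755-94375012, minus strand) had a lower value with shSIRT3_1 than with shSIRT3_2. Its log2 fold change over the 3 lines was -0.40 ± 0.15 with shSIRT3_1 (limma adjusted p = 0.041), under 1.5-fold, and 0.13 ± 0.15 with shSIRT3_2 (adjusted p = 0.53). In HBL1 the controls stood at 8.95, 10.7 and 11.0 FPKM, the shSIRT3_1 libraries at 5.41, 5.38 and 12.9, and the shSIRT3_2 libraries at 13.5, 12.9 and 17.6. The shSIRT3_2 libraries were all above the controls, while with shSIRT3_1 a pair of libraries lay below and replicate 3, the doubted library, lay above. Without that replicate GCLM passed both thresholds in HBL1 with shSIRT3_1 (-0.91, adjusted p = 0.0019). In OCILy1 the controls, at 12.6, 11.4 and 10.6, were above the shSIRT3_1 libraries, at 9.07, 7.61 and 8.19 (adjusted p = 0.051).

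GSS and GSR rose slightly with shSIRT3_2 and stayed under 1.5-fold over the 3 lines. GSS (chr20:33516235-33543830, minus strand), which completes the tripeptide, had log2 fold changes of -0.10 ± 0.09 (limma adjusted p = 0.37) and 0.30 ± 0.09 (adjusted p = 0.0076). In Karpas422 it stood at 17.9 to 18.8 FPKM in the controls, at 16.6, 17.5 and 18.8 with shSIRT3_1, and at 24.8, 23.7 and 31.1 with shSIRT3_2, so only the shSIRT3_2 libraries were separate from the controls. GSS overlaps MYH7B on the other strand. GSR (chr8:30535583-30585363, minus strand) had log2 fold changes of 0.12 ± 0.11 (adjusted p = 0.4) and 0.37 ± 0.11 (adjusted p = 0.0073). In HBL1 GSR stood at 31.5, 29.5 and 26.6 in the controls, at 28.6, 30.3 and 46.2 with shSIRT3_1, and at 51.6, 51.3 and 54.0 with shSIRT3_2. The shSIRT3_2 libraries of HBL1 were all above the controls, and in Karpas422 the 9 libraries spread from 59.8 to 78.8 with no separation.

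The next question was what happened within each line. The background in the lines was 11.5% of genes lower for Karpas422 with shSIRT3_1 and 9.44% with shSIRT3_2, 18.8% and 16.0% for HBL1, and 2.45% and 4.26% for OCILy1. In Karpas422, 4 of 9 genes were lower with shSIRT3_1, namely CHAC1 (-4.09 ± 0.49, log2 and SE), CTH (-2.55 ± 0.36), CBS (-2.17 ± 0.22) and SLC7A11 (-2.12 ± 0.26). CBS entered the Karpas422 tests only because its controls passed the filter. With shSIRT3_2, 3 of 9 were lower, CHAC1 (-5.54 ± 0.49), CBS (-3.10 ± 0.22) and CTH (-3.02 ± 0.36). SLC7A11 was not called there (-0.57 ± 0.26, limma adjusted p = 0.12), and without replicate 3 of that group it was (-0.91, adjusted p = 0.0055). Without replicate 2 of the same group, CHAC2 (-0.65, adjusted p = 0.0085) and GSS (0.60, adjusted p = 0.0094) were called as well, and CHAC2 was called with shSIRT3_1 without replicate 2 of that group (-0.60, adjusted p = 0.024). In HBL1, where CBS was too low to be tested, 3 of 8 genes were lower with each shRNA. The log2 fold changes with shSIRT3_1 and shSIRT3_2 were -4.42 ± 0.20 and -3.66 ± 0.20 for CHAC1, -4.18 ± 0.19 and -4.22 ± 0.19 for CTH, and -4.16 ± 0.26 and -2.25 ± 0.26 for SLC7A11. GSR was higher in HBL1 with shSIRT3_2, by 0.84 ± 0.17 (limma adjusted p = 0.0058), where 7.51% of genes were called higher.

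OCILy1 gave 0 of 9 calls with shSIRT3_1 by limma, where 4.50% of genes were called in either direction, and 1 of 9 with shSIRT3_2. The call was SLC7A11, at -2.75 ± 0.62 (limma adjusted p = 0.028), and it was lost when any of the 3 shSIRT3_2 libraries was left out (adjusted p = 0.053 to 0.1). The estimates of CHAC1 (-2.72 ± 1.10 and -3.56 ± 1.10) and CTH (-2.12 ± 0.63 and -2.09 ± 0.63) were not called, with SE larger than in HBL1. Among the OCILy1 knockdown libraries CHAC1 reached 1 FPKM in shSIRT3_1 replicate 2 alone (1.81). It therefore passed the filter of that line only through its controls. At an unadjusted p under 0.05 there were 5 genes with shSIRT3_1, and the share over all genes at that level is not given here. DESeq2 called 1 (SLC7A11), beside 862 over all genes, and gave no adjusted p for CHAC1 and CTH. Without OCILy1 shCTRL replicate 2, CTH was lower with both shRNAs (-1.17, adjusted p = 0.032, and -1.14, adjusted p = 0.03) and CHAC1 with shSIRT3_2 (-1.91, adjusted p = 0.041), while CHAC1 with shSIRT3_1 was at -1.07 (adjusted p = 0.16). SLC7A11 was at -1.13 (adjusted p = 0.091) and -1.87 (adjusted p = 0.031). The direction thus held without that library and the size was smaller. Because that library was singled out for its levels of these genes, the p-values without it depend on that choice. Without OCILy1 shCTRL replicate 1 instead, CTH was called with both shRNAs (-2.55 and -2.52), CHAC1 with shSIRT3_2 (-4.42), and CHAC2 was called higher with both (1.13, adjusted p = 0.0049, and 0.75, adjusted p = 0.012). Over all genes, 1133 and 1321 were called without replicate 1, and 221 and 356 without replicate 2. With all libraries 504 were called with shSIRT3_1, and 477 were called lower and 241 higher with shSIRT3_2. edgeR's quasi-likelihood test on the recovered reads called SLC7A11 and CTH with shSIRT3_1, and SLC7A11, CHAC1 and CTH with shSIRT3_2.

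Knockdown and control libraries did not overlap, in either direction, at 6 and 5 of 9 genes in Karpas422 with shSIRT3_1 and shSIRT3_2, where 51.2% and 47.0% of all tested genes did not. The counts were 4 and 3 of 9 in OCILy1 (30.9% and 33.3% of all genes) and 3 and 6 of 8 in HBL1 (50.9% and 60.9%), so the group as a whole was not far from the background. CHAC1 and CTH lay below every control in each of these comparisons, and SLC7A11 did so in all but Karpas422 with shSIRT3_2. Separation upward was seen for GCLM, GSS and GSR in HBL1 with shSIRT3_2 and for GSS in Karpas422 with shSIRT3_2.

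**Figure D2:**
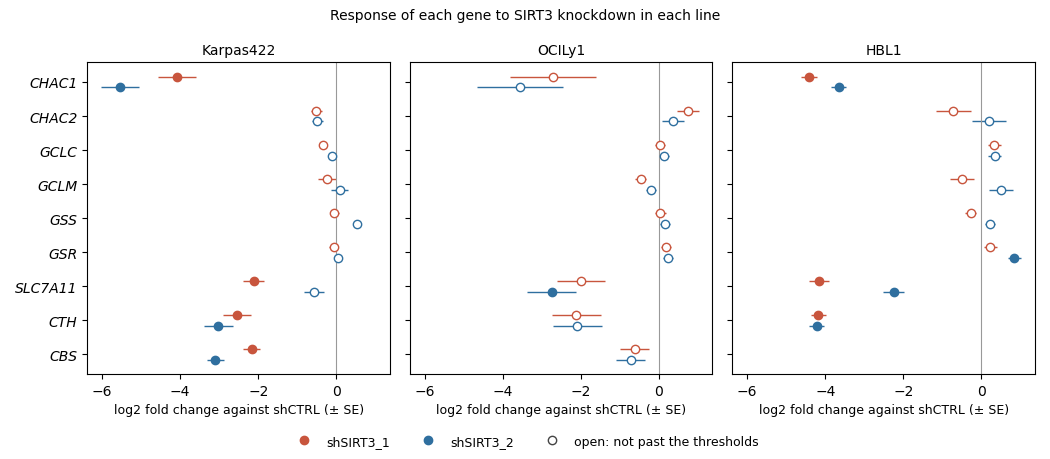
Log2 fold change against shCTRL for the 9 genes in each cell line, with ± SE from limma, for shSIRT3_1 and shSIRT3_2; filled points passed both thresholds and CBS was not tested in HBL1. CHAC1, SLC7A11 and CTH lie left of 0 in every panel, with the widest error bars in OCILy1, and the genes of synthesis and recycling lie nearer 0, with GSR called higher in HBL1 with shSIRT3_2 (0.84).

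Whether the response differed between the lines was tested by an interaction term over all 27 libraries. SIRT3 itself passed this test (limma F test, adjusted p = 0.0029). Its log2 fold changes with shSIRT3_1 and shSIRT3_2 were -1.87 and -0.88 in Karpas422, -2.78 and -1.08 in OCILy1, and -2.70 and -2.14 in HBL1. The depth of knockdown thus differed between the lines, and its part in the results below was not tested. Of the 9 genes 4 passed, where 41.8% of all genes did. They were CBS (limma F test, adjusted p = 8.5e-05), SLC7A11 (adjusted p = 0.0046), GSR (adjusted p = 0.02) and CHAC2 (adjusted p = 0.048). The CBS test included HBL1, where CBS held 0 to 11 reads and had no room to fall. It therefore cannot tell an unlike response from a gene with almost no RNA in that line. CTH (adjusted p = 0.063) and CHAC1 (adjusted p = 0.24) did not pass, and without the 2 doubted libraries they did (adjusted p = 1.1e-04 and 4.4e-04) and CHAC2 did not (adjusted p = 0.096). GCLC, GCLM and GSS were at adjusted p = 0.056, 0.26 and 0.11, and without those libraries at 0.047, 0.012 and 0.13, so 7 of 9 genes passed there, against 46.1% of all genes. Among the doubted libraries, OCILy1 shCTRL replicate 2 was singled out for its levels of genes such as CHAC1 and CTH. The p-values of these genes without it depend on that choice and are no independent test.

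The shRNAs against SIRT3 were also set against each other over the 3 lines. SIRT3 was 2.12-fold higher with shSIRT3_2 than with shSIRT3_1. Of the 9 genes 0 were called by limma, against 11.3% of all genes, 0 by edgeR and 1 by DESeq2 (SLC7A11, 1.02, adjusted p = 0.024). The unadjusted p was under 0.05 for 4 genes, GSS (0.40 ± 0.09 on the log2 scale, shSIRT3_2 minus shSIRT3_1, adjusted p = 9.3e-04), GCLM (0.53 ± 0.15, adjusted p = 0.0099), GSR (0.26 ± 0.11, adjusted p = 0.064) and SLC7A11 (0.91 ± 0.38, adjusted p = 0.071). These 4 genes were all higher with shSIRT3_2. The share over all genes at that unadjusted level is not given here, so the count has no background. GSS and GCLM passed the p threshold but not the fold threshold, and without the 2 doubted libraries GCLM passed both (0.62, adjusted p = 0.0026). CHAC1 (-0.51 ± 0.49, adjusted p = 0.45) and CTH (-0.16 ± 0.33, adjusted p = 0.74) were not called.

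The control libraries alone show how the lines differ before knockdown, across 12607 genes of which 54.6%, 54.6% and 50.8% were called for HBL1 against Karpas422, HBL1 against OCILy1 and Karpas422 against OCILy1. GCLC was highest in HBL1, at 90.4 to 122 FPKM against 18.5 to 20.3 in Karpas422 and 17.5 to 25.0 in OCILy1, a log2 difference of 2.43 ± 0.15 and 2.31 ± 0.15 (limma adjusted p = 1.2e-07 and 2.1e-07), while Karpas422 and OCILy1 did not differ beyond their spread (-0.12 ± 0.15). GSR was highest in Karpas422 (HBL1 minus Karpas422, -1.21 ± 0.15; Karpas422 minus OCILy1, 0.79 ± 0.15 on the log2 scale). CBS followed the order OCILy1, Karpas422, HBL1, with 84.3 to 257 FPKM in OCILy1 and 2.42 to 2.82 in Karpas422, a log2 difference of -5.71 ± 0.33 for Karpas422 minus OCILy1. SLC7A11 was higher in Karpas422 than in HBL1 (HBL1 minus Karpas422, -1.77 ± 0.60, adjusted p = 0.022) and than in OCILy1 (2.34 ± 0.60, adjusted p = 0.0056). The call against HBL1 was lost without Karpas422 shCTRL replicate 2 or HBL1 shCTRL replicate 3 (adjusted p = 0.073 and 0.071). GSS was higher in HBL1 than in Karpas422 by 0.63 ± 0.15 (adjusted p = 0.0043), and under 1.5-fold without HBL1 shCTRL replicate 1 (0.56) or replicate 2 (0.57).

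CTH and CHAC1 also differed between controls, in comparisons that involve OCILy1 shCTRL replicate 2. This library was singled out for its levels of CHAC1, CTH and SLC7A11, among others. The p-values of these genes without it depend on that choice and are no independent test. For HBL1 minus Karpas422, CHAC1 (-1.33 ± 1.04, limma adjusted p = 0.28) and CTH (0.81 ± 0.62, adjusted p = 0.27) were not called. That contrast holds no OCILy1 library, but the fit used 1 spread for all control groups. Without OCILy1 shCTRL replicate 2 the estimates were the same and both genes were called (adjusted p = 5.9e-05 and 0.0011). CTH was higher than in OCILy1 by 2.71 ± 0.62 in HBL1 and by 1.90 ± 0.62 in Karpas422, and CHAC1 by 3.34 ± 1.04 in Karpas422 (adjusted p = 0.017). Without OCILy1 shCTRL replicate 2 the Karpas422 values were 4.99 for CHAC1 (adjusted p = 2.7e-08), 2.86 for CTH (adjusted p = 6.7e-07) and 3.22 for SLC7A11 (adjusted p = 8.1e-06), and SLC7A11 was higher in HBL1 than in OCILy1 by 1.45 (adjusted p = 0.0013). The CHAC1 difference was not called by edgeR (adjusted p = 0.23) or DESeq2 (adjusted p = 0.26). Both Karpas422 calls were lost without OCILy1 shCTRL replicate 1 (CHAC1, adjusted p = 0.069; CTH, adjusted p = 0.08) or replicate 3 (adjusted p = 0.073 and 0.087), and that of CTH also without Karpas422 shCTRL replicate 1 or 3 (adjusted p = 0.053 and 0.051). In HBL1 CHAC1 was higher than in OCILy1 by 2.01 ± 1.04 (adjusted p = 0.11), and without the 2 doubted libraries by 3.66 (adjusted p = 1.3e-07). CHAC2 and GCLM were called between no pair of lines.

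ATF4 and NFE2L2, the transcription factors named in the background, were read from the same libraries. ATF4 RNA was below the control mean in 18 of 18 knockdown libraries, with 3-line log2 fold changes of -0.91 ± 0.15 (limma adjusted p = 5.3e-05) and -1.03 ± 0.15 (adjusted p = 1.4e-05). Without the 2 doubted libraries these were -0.84 (adjusted p = 2.8e-04) and -0.97 (adjusted p = 4.0e-05). The OCILy1 controls held 152, 326 and 129 FPKM of ATF4 and the knockdown libraries 116 to 150, so the groups overlapped here too, and ATF4 was not called with either shRNA (-0.42 ± 0.29 and -0.50 ± 0.29). Without OCILy1 shCTRL replicate 2 its values there were -0.02 and -0.10. NFE2L2 RNA changed by -0.21 ± 0.08 (adjusted p = 0.053) and -0.30 ± 0.08 (adjusted p = 0.0064), under 1.5-fold. RNA levels say nothing of the protein of either factor. In the study's own qPCR, on earlier days, ATF4 mRNA did not change after SIRT3 knockdown, while its blots showed less ATF4 protein.

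The wider pathway was read through 6 lists holding 94 genes, of which 69 were tested. With shSIRT3_1, 10 were lower and 4 higher, and with shSIRT3_2, 7 were lower and 3 higher. Over all genes tested, 9.09% and 10.2% were lower and 3.92% and 3.29% higher, the background for each list below. The median log2 fold changes were -0.11 and -0.05, beside -0.05 and -0.03 over all genes. Without the 2 doubted libraries, 7 genes of the lists were called with shSIRT3_1, and 1461 over all genes. Most genes of the lists did not pass the thresholds, and neither did most of all genes tested. Among the uptake partners of cystine and cysteine, 2 of 3 tested genes were lower with both shRNAs, SLC3A2 and the neutral amino acid exchanger SLC1A5 (-1.43 ± 0.25 and -1.11 ± 0.25, limma adjusted p = 8.6e-05 and 0.0012). Among 8 genes of cysteine and sulfide breakdown, 2 were lower with shSIRT3_1 and 4 with shSIRT3_2. Lower with both were GOT1, the cytosolic aspartate aminotransferase (-1.09 ± 0.15 and -1.29 ± 0.15), and ETHE1, the mitochondrial persulfide dioxygenase (-0.77 ± 0.15 and -0.69 ± 0.15).

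The gamma-glutamyl cycle and other glutathione breakdown gave 2 lower and 1 higher of 8 genes with shSIRT3_1 and 0 calls by limma with shSIRT3_2, where edgeR and DESeq2 called 1 each and 3 genes had an unadjusted p under 0.05. The methionine cycle gave 1 lower and 1 higher of 9 with shSIRT3_1 and 0 with shSIRT3_2 by limma, edgeR or DESeq2, with 4 genes at an unadjusted p under 0.05. For both lists the share over all genes at that unadjusted level is not given here, so these counts have no background. Of 23 glutathione-using enzymes, 2 were lower with shSIRT3_1, and 1 was lower and 1 higher with shSIRT3_2. GSTA4, a transferase that conjugates glutathione to lipid aldehydes, was lower with both (-1.37 ± 0.35 and -1.28 ± 0.35). Of 18 NADPH and NRF2 genes, 1 was lower and 2 higher with shSIRT3_1, and 2 were higher with shSIRT3_2. FTL, the ferritin light chain, was higher with both (0.71 ± 0.21 and 0.86 ± 0.21) and above its control mean in 18 of 18 libraries.

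**Figure D3:**
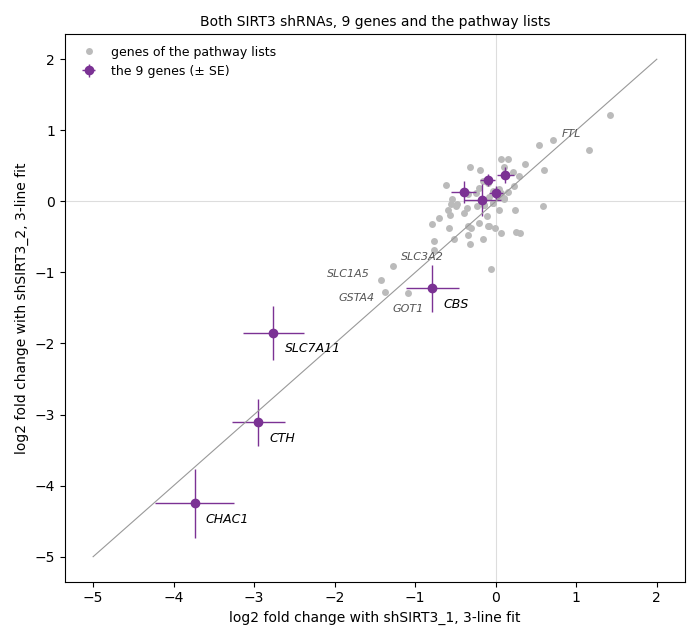
Log2 fold change over the 3 lines with shSIRT3_1 (horizontal) and shSIRT3_2 (vertical) for the 9 genes (purple, ± SE) and the 69 tested genes of the pathway lists (grey); the diagonal marks equal change. CHAC1, CTH and SLC7A11 lie below -1.8 on both axes, beyond every grey point, and both axes share the control libraries.

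Genes whose pattern over the 27 libraries was closest to CHAC1, SLC7A11 and CTH were named by the root mean square difference of log2 values, each set relative to the line's control mean. For CHAC1 they were SLC6A9, a glycine transporter (0.62), INHBE, an inhibin beta subunit (0.74), and SPNS3 (1.07). SLC6A9 had 3-line log2 fold changes of -3.59 and -3.95, near those of CHAC1. For CTH they were the kinesin KIF21B (0.53), the inhibin subunit INHBC (0.56) and SESN2, a stress-induced sestrin (0.58). For SLC7A11 they were PCK2, the mitochondrial phosphoenolpyruvate carboxykinase (0.82), SIRT3 itself (0.93) and SLC12A8 (0.93). The likeness is a description over libraries that share 9 groups. Some of the closest genes were near or below the 0.1 added before the log, which flattens their profiles there. KIF21B was at 0.0557 to 0.127 FPKM in Karpas422 with shSIRT3_2. In the knockdown libraries INHBC was at 0.0588 to 0.329 in OCILy1 and SPNS3 at 0.0174 to 0.0563 in HBL1.

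**Figure D4:**
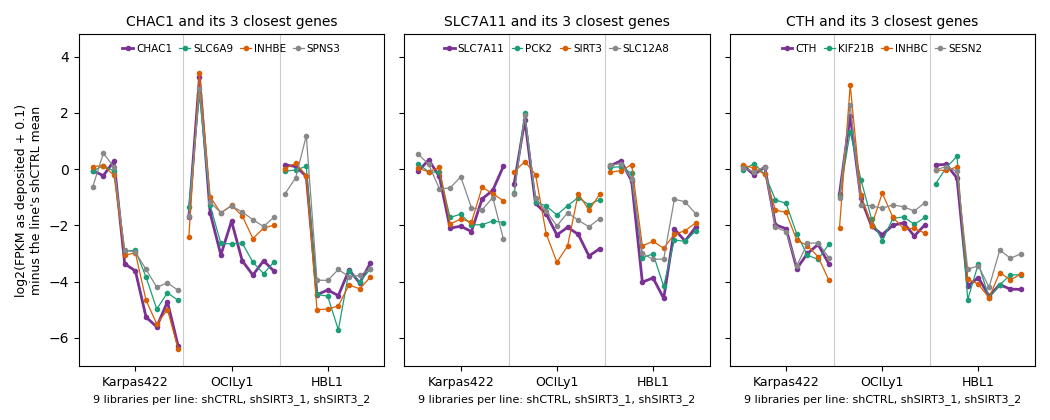
Log2 level minus the line's shCTRL mean in the 27 libraries (9 per line, in the order shCTRL, shSIRT3_1, shSIRT3_2, with replicates 1 to 3 in each) for CHAC1, SLC7A11 and CTH with the 3 genes closest to each. The peak in OCILy1 is shCTRL replicate 2, where the closest genes other than SIRT3 are 1.33 to 3.41 above the control mean and SIRT3 is at 0.27.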

How the data were processed

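Total RNA was sequenced as paired-end reads of the TruSeq RNA kit and, per the labels and the study's methods, aligned by STAR to hg19 and counted on RefSeq genes, with strand not stated. The authors deposited 1 table per library, labelled FPKM. Every value was a whole number of reads (100% within 0.01 read) divided by the library total and by 1766 bases for every gene, so the deposited values are CPM divided by 1.766. Reads on genes were 71.2% to 80.5% of the total used. CBS in HBL1 rested on 0 to 11 reads a library, and every CHAC1 value on at least 41.

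Values were taken as log2(value + 0.1), which understates changes of low genes, for genes at 1 or more in at least 3 libraries, and fitted with limma 3.58.1 (variance trend, Benjamini-Hochberg adjusted p) in R 4.3.3, with line and shRNA as terms over 27 libraries, per line, with their interaction, and over the 9 control libraries. Fold changes are on that scale. Errors after ± are SE unless stated. edgeR 4.0.16 and DESeq2 1.42.0 on the recovered reads, other pseudocounts (1 and 0.01), filters and scalings, and left-out libraries were alternatives. edgeR called 1182 genes lower and 698 higher with shSIRT3_1 and 1478 and 520 with shSIRT3_2. The fits were tested on simulated counts. Positions are from GENCODE lifted to hg19, and sequences from RefSeq on GRCh38.p14.

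The 9 genes and the pathway lists were chosen with earlier results of these data known. Named beside the 9 were SIRT3, ATF4, NFE2L2, SLC3A2, up to 3 genes per list called in the same direction with both shRNAs, and the 3 genes closest to CHAC1, SLC7A11 and CTH. Leaving out both OCILy1 shCTRL replicate 2 and HBL1 shSIRT3_1 replicate 3 (the 2 doubted libraries), and edgeR and DESeq2 for the shRNA against shRNA and list results, were added as alternatives after seeing the data.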

Additional observations from a re-analysis of the deposited data

Results flagged for a closer look

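By the interaction term in limma, the fold changes of 4 of the 9 genes differed between Karpas422, OCILy1 and HBL1, where 41.8% of all genes passed. The fall of SIRT3 itself also differed between the lines (limma F test, adjusted p = 0.0029), and its part in these differences was not tested. For CBS (adjusted p = 8.5e-05), the log2 fold changes were -2.17 and -3.10 in Karpas422 and -0.62 and -0.72 in OCILy1 with shSIRT3_1 and shSIRT3_2, and HBL1 held 0 to 11 reads. For SLC7A11 (adjusted p = 0.0046), they were -2.12 and -0.57 in Karpas422, -2.00 and -2.75 in OCILy1, and -4.16 and -2.25 in HBL1. For GSR (adjusted p = 0.02), they were -0.07 and 0.04 in Karpas422, 0.19 and 0.23 in OCILy1, and 0.23 and 0.84 in HBL1. For CHAC2 (adjusted p = 0.048), they were -0.52 and -0.49 in Karpas422, 0.74 and 0.36 in OCILy1, and -0.72 and 0.19 in HBL1. CBS, SLC7A11 and GSR stayed under the threshold in all 37 alternatives tried, and CHAC2 in 9 of 37. HBL1 was part of the CBS test, although CBS had almost no reads there and no room to fall. In limma and edgeR, groups of 3 libraries were not examined for single outlying values by a test. DESeq2 was run with its default screen for outlying counts.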

How the results depend on the processing

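Over 2711 recomputed values of single genes, 2595 stayed on the same side of the thresholds, 49 lost a call, 67 gained one and 0 reversed a called value. CHAC1 and CTH were called over the 3 lines with both shRNAs in all 44 alternatives, and SLC7A11 with shSIRT3_1 in all 44 and with shSIRT3_2 in 43. Of the 116 changed calls, 49 were of the interaction, 22 between controls, 21 in OCILy1 with an shRNA and 24 elsewhere. With shSIRT3_1 the OCILy1 count of 0 became 2 with edgeR and 1 with DESeq2 or without the 2 doubted libraries. With shSIRT3_2 its count of 1 became 0 with no filter on low values, 3 with edgeR, and 3 without the 2 doubted libraries. Without these 2 libraries the interaction count was 7, the count between the shRNAs 1 (also 1 with DESeq2), the control count of HBL1 against OCILy1 5, and the count over the lists with shSIRT3_1 7. The control count of Karpas422 against OCILy1 was 3 with edgeR and with DESeq2, and the list count with shSIRT3_2 was 6 at a pseudocount of 1.

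Leaving out 1 library, or 1 replicate number, gave 3 to 4 genes over the 3 lines with shSIRT3_1 and 2 to 4 with shSIRT3_2. Between the shRNAs only the 3 replicate numbers were left out in turn, with 0 genes called, and single libraries were not. For the interaction, leaving out 1 library gave 3 to 6 genes. The ranges were 3 to 5 and 2 to 5 in Karpas422, 0 to 2 and 0 to 4 in OCILy1, and 3 to 4 and 4 in HBL1. Between controls they were 4 to 7 for HBL1 against Karpas422, 3 to 5 for HBL1 against OCILy1 and 3 to 5 for Karpas422 against OCILy1. CBS over the 3 lines gained its shSIRT3_1 call in 11 of 44 alternatives, among them without HBL1 (-1.39, adjusted p = 0.0071), and lost its shSIRT3_2 call in 3. DESeq2 gave no adjusted p for CTH between controls. The cause of these changes was not tested.

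Replicate numbers are shared across groups. Libraries with the same number deviated together with a correlation of 0.01 to 0.56 (median 0.31), above 0.1 in 26 of 27 pairs. Pairs with other numbers had -0.54 to 0.35 (median -0.17), above 0.1 in 12 of 54. Of 54 best matches, 47 were to the same number, a hint from the data and not from the design. The main fits had no replicate block. With the replicate block the OCILy1 count with shSIRT3_2 was 2, CHAC1 being added (adjusted p = 0.024), CTH gained an interaction call (adjusted p = 0.042) and CHAC2 in HBL1 with shSIRT3_1 gained one (-0.72, adjusted p = 0.03).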
